A study of Mus musculus with 6 samples.

Results

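Fatty acid desaturases insert double bonds into acyl chains, and elongases lengthen those chains. Of these enzymes, 5 were followed in fat tissue of NOD (non-obese diabetic) mice: the stearoyl-CoA desaturases Scd1 and Scd2, the front-end desaturases Fads1 and Fads2, and the elongase Elovl5. They were chosen by name. All probe sets that the platform annotation pairs with these symbols were taken, 12 of 45101 on the array, and 11 of them passed the filter on low signal (mean over the arrays above 164). The probe set with the highest mean signal stood for its gene, and all 5 genes were among the 13040 genes tested. The series holds 6 Affymetrix mouse arrays of fat RNA, 2 for each of 3 groups. AAT-treated mice had received alpha-1-antitrypsin, a serum protease inhibitor, and had reverted stably to insulin independence. Diabetic mice had shown blood glucose over 300 mg/dl on 3 days in a row. Normoglycemic mice were females 10 weeks old. The labels give no fat depot, no AAT dose and, outside the normoglycemic group, no age or sex, so age and group cannot be told apart. Nor do they state if a group's 2 arrays represent different mice or pools, so any p below reflects array-to-array spread that may be technical.

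Scd enzymes place a double bond at the ninth carbon of saturated acyl-CoA and yield the monounsaturated chains that dominate stored triglyceride. Scd1 is the main form of mouse fat and liver, and Scd2 is abundant in brain. Fads2 and Fads1 act in turn on the essential dietary fatty acids, with Elovl5 adding carbons between their steps, to make arachidonic and related long-chain polyunsaturated acids. Genes of both branches are known targets of the insulin-induced factor SREBP-1c and of the liver X receptors, and dietary polyunsaturated fat represses them. In the RefSeq gene order Scd3, Scd2, Scd4 and Scd1 follow one another on chromosome 19. Fads3, Fads2 and Fads1 are neighbours elsewhere on the same chromosome.

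The arrays differed in technical measures that touch these genes. The 3' to 5' signal ratio of the beta-actin control, a measure of RNA quality, was 9.08 and 5.87 on the AAT-treated arrays, 15.2 and 15.5 on the diabetic arrays, and 3.63 and 4.30 on the normoglycemic arrays. That of the Gapdh control was 2.31 and 0.79 on the AAT-treated, 2.46 and 4.63 on the diabetic, and 0.91 and 0.95 on the normoglycemic arrays. Spiked-in hybridisation controls averaged 86286 on AAT-treated array 2 and 128548 on normoglycemic array 1. Their average ranged from 25159 to 48494 on the other 4. Of 9 adipocyte markers 7 were measured and kept, and 6 of them were at 5450 or more on every array, with Adipoq from 15690 to 48984. The other, the leptin gene Lep, ranged from 18.7 on diabetic array 1 to 9408 on diabetic array 2. Of 4 brown fat markers the defining one, Ucp1, was under the filter at 124 or less, while Cox8b reached 1883 on normoglycemic array 1, Elovl3 898 on diabetic array 1 and Cidea 398 there.

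No gene of the 5 passed the test in any of the 3 comparisons. By limma with Benjamini-Hochberg adjustment over 13040 genes, 0 of the 5 had an adjusted p under 0.05 between diabetic and normoglycemic fat, as did 0% of all genes. At an unadjusted p under 0.05 there was 1 of the 5, Scd2, where 9.9% of all genes were past that mark. The groups did not overlap for 1 of the 5, again Scd2, where 44.7% of all genes had groups that did not overlap. Between AAT-treated and diabetic fat 0 of the 5 passed after adjustment (0% of all genes), and 1, Scd2, had an unadjusted p under 0.05 (4.77% of all genes). It was also the 1 gene of the 5 whose groups did not overlap (33.8% of all genes). Between AAT-treated and normoglycemic fat 0 of the 5 passed by either measure, where 0% and 5.12% of all genes did. Groups did not overlap for 2 of the 5, Scd1 and Scd2, against 32.1% of all genes. Each pair of comparisons shares the arrays of 1 group, so the differences are not independent. All differences below are in log2(signal + 75), with 75 set at the 25th percentile of signals and the moderated SE of limma and n = 2 arrays per group. The added constant understates differences of dim probe sets.

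**Figure D1:**
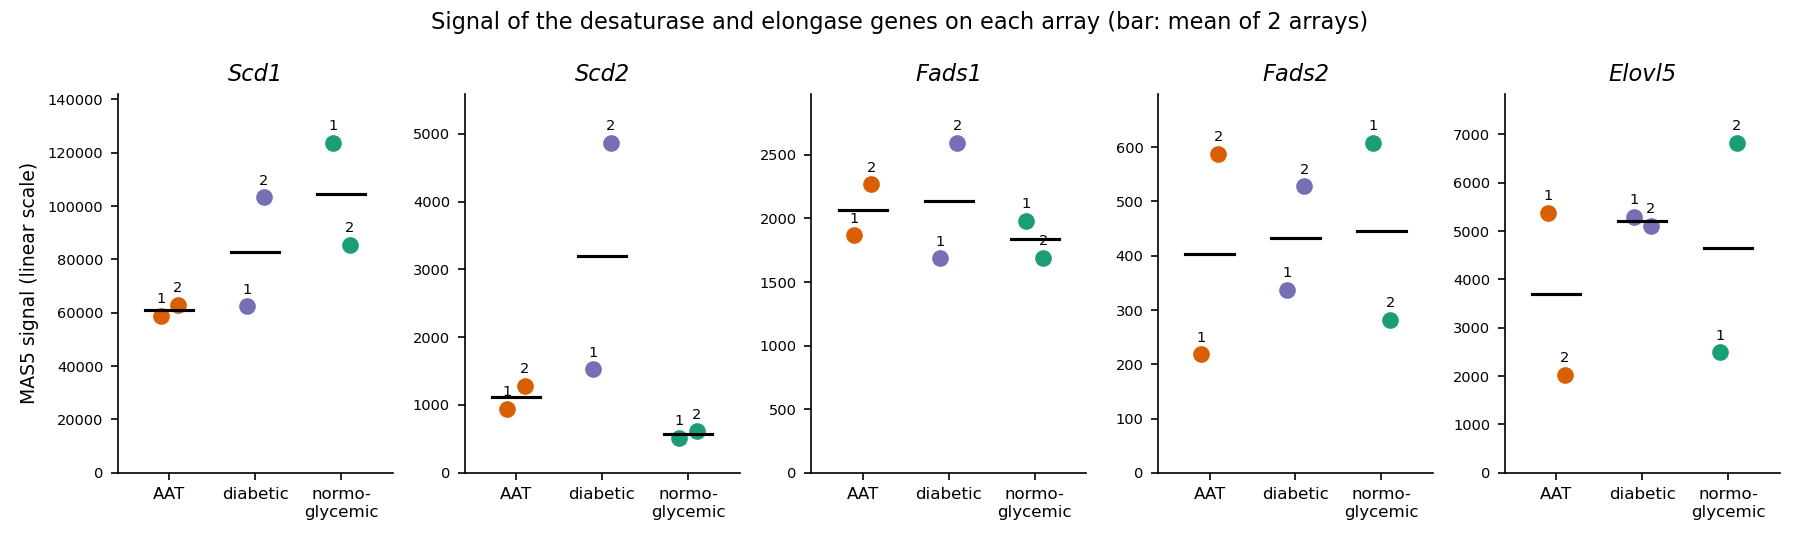
MAS5 signal (linear scale, from 0) of the probe set that stands for each gene, on each array. Points are arrays, numbered by replicate, and bars are means of 2 arrays. The 2 diabetic arrays have the highest Scd2 signals (1530 and 4864), and Elovl5 is lowest on AAT-treated array 2 (2026) and normoglycemic array 1 (2490).

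Scd2 had its highest signals in diabetic fat and its lowest in normoglycemic fat. Its signal was 941 and 1285 in AAT-treated fat, 1530 and 4864 in diabetic fat, and 519 and 614 in normoglycemic fat. Both diabetic arrays lay above both AAT-treated arrays, which lay above both normoglycemic arrays. Of the 13040 genes, 244 (1.87%) had this order of the 6 arrays, and Scd2 was the single one of the 5. The order was picked after the Scd2 values were seen, so this share is a description and not a test. Mean signal was 1113 ± 244 in AAT-treated, 3197 ± 2358 in diabetic fat and 567 ± 66.8 in normoglycemic fat (SD, n = 2 each). The diabetic arrays differed from each other by 3.18 times.

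Scd2 in diabetic fat differed from normoglycemic fat by 2.14 ± 0.50 (95% interval 0.98 to 3.29). Its unadjusted p in limma's fit was 0.00258, and its adjusted p was 0.459. AAT-treated fat differed from diabetic fat by −1.26 ± 0.50 (interval −2.42 to −0.11; limma adjusted p = 0.961). AAT-treated fat differed from normoglycemic fat by 0.88 ± 0.50 (interval −0.28 to 2.03; limma adjusted p = 0.923). The size of the first difference rested on diabetic array 2. It was 1.33 without that array and 2.95 without diabetic array 1. The second was −0.45 without diabetic array 2 and −2.07 without diabetic array 1.

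The other Scd2 probe sets did not all follow. Probe set 1415824_at, annotated to the same cDNA as the brightest one, 1415822_at, read 454 and 571 in AAT-treated, 661 and 887 in diabetic, and 412 and 280 in normoglycemic fat. That is the same order of groups, with smaller differences. They were 1.02 ± 0.38 for diabetic against normoglycemic, −0.53 ± 0.38 for AAT-treated against diabetic and 0.49 ± 0.38 for AAT-treated against normoglycemic fat. The dimmest, 1415823_at, read 93.4 and 386 in AAT-treated, 73.1 and 311 in diabetic, and 227 and 226 in normoglycemic fat. Its groups overlapped in every comparison, and it differed by −0.33 ± 0.66 between diabetic and normoglycemic fat. The difference was 0.22 ± 0.66 between AAT-treated and diabetic fat and −0.11 ± 0.66 between AAT-treated and normoglycemic fat. Each sign was opposite to that of the brightest probe set. With the mean of the kept probe sets in place of the brightest, Scd2 differed by 0.94 between diabetic and normoglycemic fat, by −0.52 between AAT-treated and diabetic fat and by 0.42 between AAT-treated and normoglycemic fat.

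Other measures had the same order of groups as Scd2. The beta-actin ratio did on all 6 arrays. The Gapdh ratio did not, as it was lower on AAT-treated array 2 (0.79) than on both normoglycemic arrays. With the log2 beta-actin ratio as a covariate the difference of Scd2 between diabetic and normoglycemic fat was 2.85 ± 2.21. The beta-actin ratio did not overlap between groups, so that fit can hardly separate it from group. Its value is not an estimate of a group effect. The summed signal of 6 macrophage markers, 6 of 6 kept, was 11105 and 6865 in AAT-treated, 13636 and 20574 in diabetic, and 5881 and 6007 in normoglycemic fat, with no overlap between groups. Csf1r and C1qb each had this order without overlap, while Adgre1, Cd68, Lyz2 and Cd163 did not, as some of their groups overlapped. In whole tissue, more cells of a type and more RNA per cell cannot be told apart. The part of these measures in the Scd2 result was not tested. The myelin and Schwann cell list, of cells in which Scd2 is abundant, had a summed signal of 3603 and 4474 in AAT-treated, 2502 and 5573 in diabetic fat and 2236 and 2521 in normoglycemic fat. Of its 7 genes 4 were measured, and its diabetic range overlapped both others.

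Scd1, the main stearoyl-CoA desaturase of fat, had its highest mean in normoglycemic fat and its lowest in AAT-treated fat. Its signal was 58903 and 63020 in AAT-treated fat, 62412 and 103399 in diabetic fat, and 123691 and 85512 in normoglycemic fat. The AAT-treated arrays lay below both normoglycemic arrays, and the diabetic arrays overlapped both other groups. Mean signal was 60962 ± 2911 in AAT-treated, 82905 ± 28982 in diabetic fat and 104602 ± 26997 in normoglycemic fat (SD, n = 2 each). The whole range over the 6 arrays was 2.1 times, against 9.37 times for Scd2.

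AAT-treated fat differed from normoglycemic fat in Scd1 by −0.75 ± 0.49 (interval −1.88 to 0.37; limma adjusted p = 0.923). The difference was −0.29 with quantile normalization and −0.49 without normoglycemic array 1. AAT-treated fat differed from diabetic fat by −0.40 ± 0.49 (interval −1.52 to 0.73), by −0.03 without diabetic array 2 and by −0.76 without diabetic array 1. With the mean of the kept probe sets it was −0.63. Diabetic fat differed from normoglycemic fat by −0.36 ± 0.49 (interval −1.48 to 0.77), and by 0.24 with quantile normalization and 0.0077 without diabetic array 1, so its direction turned. The brightest Scd1 probe set ranked between 7 and 44 from the top of all probe sets on every array, at the upper end of the scale. Saturation of its signal was not tested.

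The other Scd1 probe set, 1415965_at, is annotated to the same transcript and was far dimmer. It read 3743 and 2217 in AAT-treated, 3955 and 7116 in diabetic, and 4930 and 3574 in normoglycemic fat. Here AAT-treated fat lay below diabetic fat on both arrays, with a difference of −0.86 ± 0.40, and diabetic fat differed from normoglycemic fat by 0.33 ± 0.40. The 2 probe sets therefore gave opposite signs for diabetic against normoglycemic fat and the same sign for both comparisons of AAT-treated fat. Values of 1415965_at, like those of every probe set that does not stand for its gene, come from a limma fit over all probe sets with 1 gene symbol. In that fit the SE of the brightest Scd1 probe set was 0.97, against 0.49 in the fit over genes. The summed signal of 7 kept adipocyte markers was 192604 and 305846 in AAT-treated, 188690 and 313376 in diabetic, and 477953 and 290491 in normoglycemic fat. As for Scd1, normoglycemic array 1 was the highest, where Fabp4 alone read 339475. Cidec was also highest there, while Adipoq, Lep, Lipe, Pnpla2 and Retn were highest on diabetic array 2. The summed signals of 6 smooth muscle markers were 53460 and 81932 in AAT-treated, 13683 and 9476 in diabetic, and 6777 and 28146 in normoglycemic fat, and so were highest on the arrays where Scd1 averaged lowest. Those of 4 mesothelium markers were likewise highest there, at 4741 and 7115 in AAT-treated, 3396 and 3117 in diabetic, and 3374 and 2389 in normoglycemic fat. Of these markers Upk3b and Wt1 were highest on both AAT-treated arrays, while Msln and Krt19 overlapped between groups. The part of these marker lists in the Scd1 values was not tested.

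On the brightest probe sets, Scd2 set against Scd1 on the same array was highest in diabetic fat. The log2 ratio of Scd2 to Scd1 within an array was −5.86 and −5.54 in AAT-treated, −5.28 and −4.39 in diabetic, and −7.70 and −6.96 in normoglycemic fat. Its level has no meaning, because probe sets differ in brightness, but its differences between arrays do. No groups overlapped. The ratio in diabetic fat exceeded that in normoglycemic fat by 2.49, and that in AAT-treated fat exceeded normoglycemic fat by 1.63. AAT-treated minus diabetic fat gave −0.86, which was −0.41 without diabetic array 2 and −1.31 without diabetic array 1. With the mean over each gene's kept probe sets, diabetic minus normoglycemic fat was smaller at 0.95 and AAT-treated minus normoglycemic fat at 1.06. AAT-treated minus diabetic fat turned sign to 0.11, so the mean ratio was then highest in AAT-treated fat. On the brightest probe sets the exact permutation p was 0.333 for each difference (2-sided), the smallest that 2 arrays against 2 allow.

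**Figure D2:**
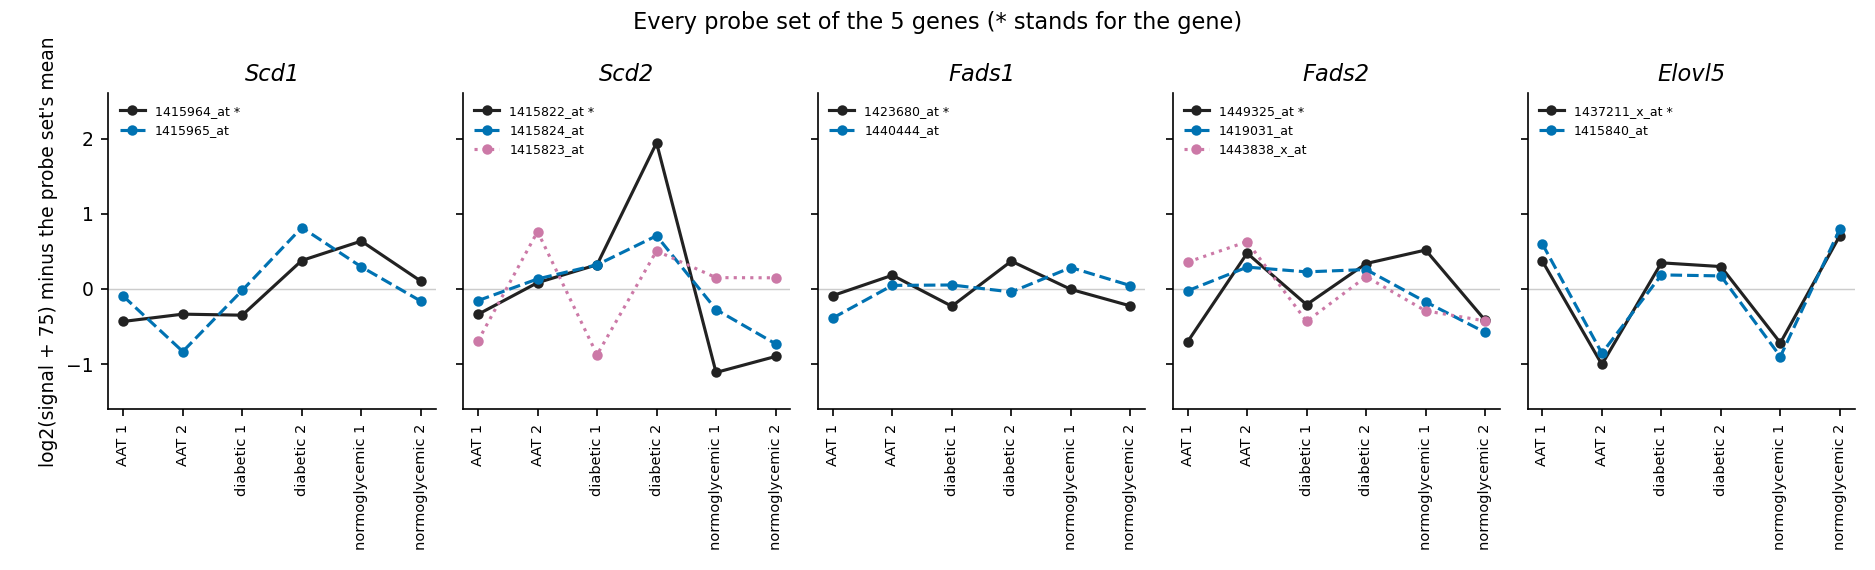
Every probe set of the 5 genes as log2(signal + 75) minus its own mean over the 6 arrays, so that 0 is the mean of a probe set. The 2 Elovl5 probe sets run together over all 6 arrays, while those of the other 4 genes part.

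Fads1, the desaturase that completes arachidonic acid, was the most even of the 5 across arrays. Its signal was 1867 and 2268 in AAT-treated fat, 1686 and 2594 in diabetic fat, and 1982 and 1691 in normoglycemic fat. The summed signal of 3 hepatocyte markers was 698 and 5118 in AAT-treated, 905 and 4897 in diabetic, and 1019 and 1169 in normoglycemic fat, highest on the 2 arrays where Fads1 was highest, and its part was not tested. All 3 Fads1 groups overlapped, and the highest array exceeded the lowest by 1.54 times. AAT-treated fat differed from diabetic fat by −0.02 ± 0.34 (interval −0.79 to 0.75) and from normoglycemic fat by 0.16 ± 0.34 (interval −0.61 to 0.93). Diabetic fat differed from normoglycemic fat by 0.19 ± 0.34 (interval −0.58 to 0.96). The intervals do not show that Fads1 was alike in the groups. The second probe set, 1440444_at, read 423 and 598 in AAT-treated, 601 and 558 in diabetic, and 718 and 597 in normoglycemic fat. It differed by −0.16 ± 0.35 between diabetic and normoglycemic fat, the opposite sign to that of the brighter probe set.

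Fads2, the desaturase that starts the polyunsaturated branch, varied more within groups than between them on its brightest probe set, 1449325_at. Its signal was 218 and 588 in AAT-treated fat, 338 and 528 in diabetic fat, and 608 and 282 in normoglycemic fat. The groups overlapped in every comparison. The highest values were on AAT-treated array 2 and normoglycemic array 1, the arrays with the brightest hybridisation controls, and 20.6% of all genes had these 2 arrays above the other 4. Diabetic fat differed from normoglycemic fat by 0.01 ± 0.51 (interval −1.15 to 1.18), AAT-treated from diabetic fat by −0.18 ± 0.51 (interval −1.35 to 0.99), and AAT-treated from normoglycemic fat by −0.16 ± 0.51 (interval −1.33 to 1.0). When the hybridisation-control level entered the fit these were 0.77 ± 0.39, −0.43 ± 0.33 and 0.34 ± 0.35, and with the beta-actin ratio in its place 4.10 ± 1.48, −2.41 ± 0.86 and 1.69 ± 0.74. The beta-actin ratio did not overlap between groups, so that fit can hardly separate it from group, and its values are not estimates of a group effect. Their limma adjusted p was 0.476, 0.517 and 0.559. The summed signal of 8 mammary epithelium markers, 6 of them kept, was 1464 and 10197 in AAT-treated, 2975 and 1749 in diabetic, and 4047 and 1893 in normoglycemic fat. It was highest on the same 2 arrays as Fads2. Most of this sum on AAT-treated array 2 was Krt18 (5150), Krt8 (2237) and Krt5 (1742). These genes, Csn2 and Elf5 each had the same 2 arrays on top, while Krt14, Csn3 and Wap did not. Wap read 131 on AAT-treated array 2 and 255 on normoglycemic array 2. The part of this list in the Fads2 result was not tested.

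A second Fads2 probe set, 1419031_at, annotated to the same transcript, gave another picture. It read 261 and 343 in AAT-treated, 325 and 333 in diabetic, and 228 and 154 in normoglycemic fat. AAT-treated and diabetic fat each lay above both normoglycemic arrays, with differences of 0.51 ± 0.45 and 0.62 ± 0.45. The limma fit over all probe sets gave these an adjusted p of 0.944 and 0.713. The third probe set, 1443838_x_at, was at 95.8 or less on every array and under the signal filter. An _x_at name marks a probe set whose probes can bind other transcripts. The log2 ratio of Fads2 to Fads1 differed by −0.17 between diabetic and normoglycemic fat (exact permutation p = 1.0, 2-sided), with overlapping groups.

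Elovl5, which elongates polyunsaturated chains, followed the arrays more than the groups. Its signal was 5375 and 2026 in AAT-treated fat, 5290 and 5108 in diabetic fat, and 2490 and 6821 in normoglycemic fat. The diabetic arrays differed by 1.04 times, while the AAT-treated and normoglycemic pairs differed by 2.65 and 2.74 times. The low arrays were AAT-treated array 2 and normoglycemic array 1, those with the brightest hybridisation controls, and 13.7% of all genes had these 2 arrays below the other 4. The summed signal of 3 endothelium markers, all kept, was 8569 and 1961 in AAT-treated, 7092 and 3215 in diabetic, and 1177 and 10426 in normoglycemic fat, lowest on the same 2 arrays. So was that of 4 sebocyte markers, at 11284 and 5289 in AAT-treated, 13441 and 9706 in diabetic, and 9283 and 10850.5 in normoglycemic fat. Most of this sum was Plin2, which alone had that order. Scd3 was instead highest on AAT-treated array 2 (492), and Mc5r (449) and Krt79 (876) on normoglycemic array 1. The mammary epithelium sum given for Fads2 was highest on the 2 arrays where Elovl5 was low. The part of these lists in the Elovl5 values was not tested. AAT-treated fat differed from diabetic fat by −0.64 ± 0.57 (interval −1.94 to 0.66) and from normoglycemic fat by −0.31 ± 0.57 (interval −1.62 to 0.99). Diabetic fat differed from normoglycemic fat by 0.33 ± 0.57 (interval −0.98 to 1.63).

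The direction of each Elovl5 difference turned without 1 of the low arrays. Without normoglycemic array 1, diabetic fat differed from normoglycemic fat by −0.39. Without AAT-treated array 2, AAT-treated fat differed from diabetic fat by 0.05 and from normoglycemic fat by 0.37. The second probe set, 1415840_at, read 4044 and 1429 in AAT-treated, 3022 and 2994 in diabetic, and 1384 and 4658 in normoglycemic fat. The same 2 arrays were low on both. The probe set that stands for Elovl5, 1437211_x_at, has an _x_at name, so its probes can bind other transcripts, and 1415840_at does not. The spread within groups was 0.81 (log2 SD) for Elovl5, larger than for 90.1% of genes, and 0.28 for Fads1, larger than for 29.1%.

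Of the 5 genes 2 had a window around the start site in the RefSeq promoter table (build GRCm38.p6), which holds 250 bases before the start and 50 after it. They are Fads2 and Elovl5, shown because the others had no window. A link between the letters of a window and the signals on these arrays was not tested. The Fads2 window is chr19:10101454-10101753 on the minus strand and the Elovl5 window chr9:77917115-77917414 on the plus strand, both written 5′ to 3′ in the direction of transcription. Capitals mark matches on either strand to CCAAT (the NF-Y box), CACGTG (an E-box), TCACNCCAC (a sterol regulatory element) or AGGTCA (a nuclear receptor element).
Fads2: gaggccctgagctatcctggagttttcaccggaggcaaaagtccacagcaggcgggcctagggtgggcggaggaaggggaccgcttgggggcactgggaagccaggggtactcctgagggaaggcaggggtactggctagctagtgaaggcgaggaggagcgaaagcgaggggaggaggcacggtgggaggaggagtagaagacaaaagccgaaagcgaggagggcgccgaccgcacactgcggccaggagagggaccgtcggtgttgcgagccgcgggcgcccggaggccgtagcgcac
Elovl5: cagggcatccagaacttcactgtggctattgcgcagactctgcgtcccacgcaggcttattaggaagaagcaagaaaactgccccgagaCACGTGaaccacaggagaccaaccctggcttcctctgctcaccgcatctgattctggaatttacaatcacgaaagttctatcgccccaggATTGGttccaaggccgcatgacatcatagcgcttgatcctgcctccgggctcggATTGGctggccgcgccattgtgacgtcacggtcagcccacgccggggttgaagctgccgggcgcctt

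The Elovl5 window held 2 CCAAT matches, both on the opposite strand, at 71 and 17 bases before the start, and 1 E-box at 161 bases before it. No match overlapped another. The Fads2 window held 0 of the 4 motifs. Among 32851 windows of the same length, 37.4% held CCAAT, 7.15% CACGTG, 1.24% TCACNCCAC and 16.3% AGGTCA. A match is a run of letters and not a shown binding site, and the missing ones say only that the letters are not in this window.

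**Figure D3:**
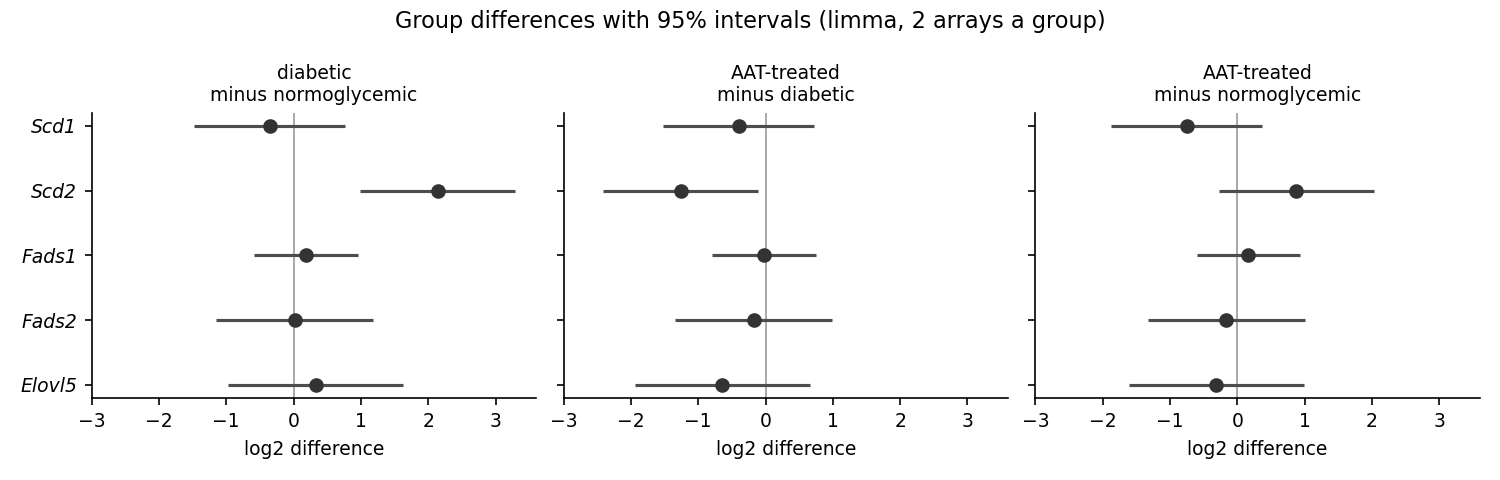
Log2 differences between groups for the 5 genes, with 95% intervals from limma (2 arrays per group). Intervals of Scd2 for diabetic minus normoglycemic (0.98 to 3.29) and AAT-treated minus diabetic (−2.42 to −0.11) do not hold 0, before adjustment over 13040 genes, and all others do.

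The 5 genes did not share a pattern over the 6 arrays, and the genes most like each of them were different. Likeness was the Pearson correlation of log2 values over the 6 arrays, given as a description. It was taken over all 13040 genes, so high values arise readily with so few arrays. For Scd2 the closest were the lymphangiogenic factor Vegfd (0.994), the DNA methyltransferase Dnmt3a (0.985) and the beta-arrestin Arrb2 (0.983). Vegfd signals were 1451 and 1747 in AAT-treated, 1858 and 2887 in diabetic, and 1108 and 1163 in normoglycemic fat, the same order of groups as Scd2. For Scd1 they were the peroxisomal beta-oxidation enzyme Hsd17b4 (0.996), Ifitm5 (0.993) and the complex I subunit Ndufb10 (0.988). Hsd17b4 read 3878 and 3989 in AAT-treated, 4017 and 6285 in diabetic, and 6859 and 5116 in normoglycemic fat.

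For Elovl5 the closest were Tmem182 (0.990), the fatty acid transporter Cd36 (0.990) and the actin-binding gene Lasp1 (0.988). Cd36 read 25237 and 3678 in AAT-treated, 17055 and 20786 in diabetic, and 5783 and 32465 in normoglycemic fat, low on the same 2 arrays as Elovl5. For Fads2 they were the cytochrome P450 gene Cyp2c29 (0.991), Abcf3 (0.989) and the kinase Dclk1 (0.988). For Fads1 they were the macrophage gene Cd5l (0.988), the phosphatase Inpp4a (0.982) and the adipogenic gene Medag (0.981).

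The rest of the pathway was read from 5 lists of genes with related roles, and 0 genes of any list passed the adjusted threshold in any comparison. Among other desaturases and elongases 8 of 12 were kept. In diabetic against normoglycemic fat 5 of the 8 were higher, with a median difference of 0.64, where 46.4% of all genes were higher and their median was −0.06. Of these 8, 6 were lower in AAT-treated than in diabetic fat, with a median of −0.51, where the median of all genes was 0.01. The first median was −0.009 without normoglycemic array 2, 0.30 without diabetic array 1 and 0.41 with the mean of the kept probe sets, and the second was −0.83 without AAT-treated array 1. Elovl6, which elongates the palmitate that Scd enzymes then receive as stearate, read 480 and 744 in AAT-treated, 2850.5 and 2598 in diabetic, and 2806 and 618 in normoglycemic fat. It differed by −2.05 ± 0.60 between AAT-treated and diabetic fat, with no overlap. Degs1, a sphingolipid desaturase, differed by −1.36 ± 0.59 and Fads3 by −1.19 ± 0.86 in the same comparison.

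Genes that supply electrons to desaturases or complete the elongation cycle numbered 12, of which 11 were kept. In diabetic against normoglycemic fat 7 of the 11 were higher (median 0.52), and in AAT-treated against diabetic fat 8 were lower (median −0.42). The first median was 0.14, with 6 of 11 higher, without diabetic array 2, 0.89 without diabetic array 1 and 0.24 with the mean of the kept probe sets. The second was 0.095 without AAT-treated array 2, −0.94 without AAT-treated array 1 and −0.15 without diabetic array 2. Cyb5a, the cytochrome b5 that passes electrons to Scd and Fads enzymes, read 15346 and 29266 in AAT-treated, 14123 and 13866 in diabetic, and 45879 and 22101 in normoglycemic fat. The diabetic arrays were the lowest. Cyb5a differed by 0.60 ± 0.49 between AAT-treated and diabetic fat and by −1.18 ± 0.49 between diabetic and normoglycemic fat. Its reductase Cyb5r3 differed by −0.25 ± 0.36 and 0.52 ± 0.36 in those comparisons, and the dehydratase Hacd2 by −0.56 ± 0.70 and 0.43 ± 0.70.

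Enzymes that make the saturated chain, the substrate of Scd1 and Scd2, had larger median differences than the 5 genes in the comparisons that include diabetic fat, with no test between the sets. All 7 were lower in AAT-treated than in diabetic fat (median −2.04), and all 7 were higher in diabetic than in normoglycemic fat (median 1.46). The second median was 0.70, with 6 of 7 higher, without normoglycemic array 2, 2.22 without normoglycemic array 1 and 0.86 with the mean of the kept probe sets. Over the 5 desaturase and elongase genes the medians were −0.40, with 5 of 5 lower, and 0.19, with 4 of 5 higher. Of all genes 51.2% were higher in AAT-treated than in diabetic fat, and 46.4% were higher in diabetic than in normoglycemic fat. Between AAT-treated and diabetic fat Fads1 was at −0.02, and Fads1, Fads2 and Elovl5 each turned sign under 2 of 19 alternatives. Scd2 alone, at 2.14 between diabetic and normoglycemic fat, was past 6 of the 7 enzymes, whose range was 0.38 to 2.18. Acaca, which makes malonyl-CoA, read 5525 and 6682 in AAT-treated, 22561 and 25996 in diabetic, and 14869 and 5136 in normoglycemic fat. It differed by −1.98 ± 0.50 between AAT-treated and diabetic fat, Fasn by −3.01 ± 0.70 and Acly by −2.04 ± 0.35. Scd1 differed by −0.40 ± 0.49 there, and the difference between these genes and Scd1 was not tested.

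Regulators of desaturase transcription numbered 14, of which 13 were kept. Of these, 9 were lower in AAT-treated than in diabetic fat (median −0.31), and in diabetic against normoglycemic fat 9 were higher (median 0.28). The first count was 7 of 13 without AAT-treated array 2, and its median −0.17 with the mean of the kept probe sets. The second median was 0.16 without normoglycemic array 1 and 0.43 without diabetic array 2. Srebf1, which encodes SREBP-1, read 2240 and 1520.5 in AAT-treated, 5445 and 5289.5 in diabetic, and 2189 and 1889 in normoglycemic fat. Both diabetic arrays were above the other 4. Srebf1 differed by −1.50 ± 0.32 between AAT-treated and diabetic fat (limma adjusted p = 0.6) and by 1.37 ± 0.32 between diabetic and normoglycemic fat (limma adjusted p = 0.459). In the first of these comparisons Insig1, an SREBP target that restrains its processing, differed by −2.69 ± 0.34 and the lipogenic gene Thrsp by −1.46 ± 0.74. Of the 5 genes Scd2 was the one with both diabetic arrays on top, as Srebf1 had them. The share of all genes with both diabetic arrays on top was not counted. In either direction, diabetic and normoglycemic groups did not overlap for 44.7% of all genes, and AAT-treated and diabetic groups for 33.8%, so such a match may be common. A link between Srebf1 and Scd2 was not tested.

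Genes that activate fatty acids, place them in phospholipids or turn them into eicosanoids numbered 18, of which 11 were kept. Of these 6 were higher and 5 lower in AAT-treated than in diabetic fat (median 0.06), and in diabetic against normoglycemic fat 3 were higher (median −0.12). The first median was −0.014 without diabetic array 1, and the second −0.32 without normoglycemic array 2. Acsl4, which activates arachidonic acid, differed by 0.12 ± 0.31 and −0.39 ± 0.31 in these comparisons. Acsl5 differed by −0.24 ± 0.43 and −0.12 ± 0.43, and Lpcat3, which inserts polyunsaturated chains into phospholipid, by −0.52 ± 0.44 and 0.43 ± 0.44. In AAT-treated against normoglycemic fat the medians of the 5 lists lay between −0.57 and 0.04, and each turned sign without 1 array or more. The lowest, of saturated fatty acid synthesis, was 0.059 without normoglycemic array 1 and −1.16 without normoglycemic array 2. The highest, of other desaturases and elongases, was −0.44 without AAT-treated array 1 and −0.47 without AAT-treated array 2.

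**Figure D4:**
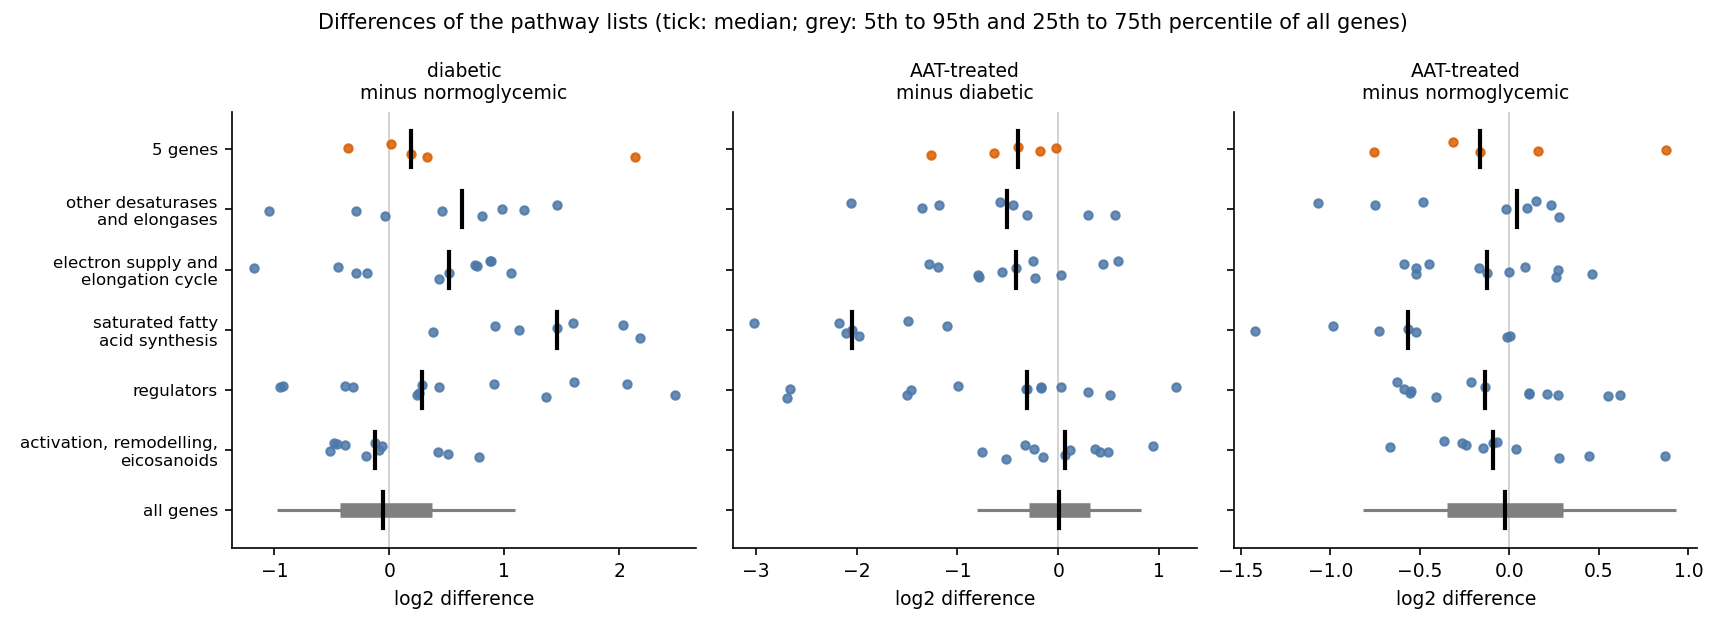
Log2 differences of the 5 desaturase and elongase genes and of the kept genes of 5 pathway lists, a point for each gene and a tick at the median. Grey bars give the spread of all 13040 genes. Saturated fatty acid synthesis has medians of 1.46 and −2.04 in the comparisons that include diabetic fat, against 0.19 and −0.40 for the 5 genes.

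**Figure D5:**
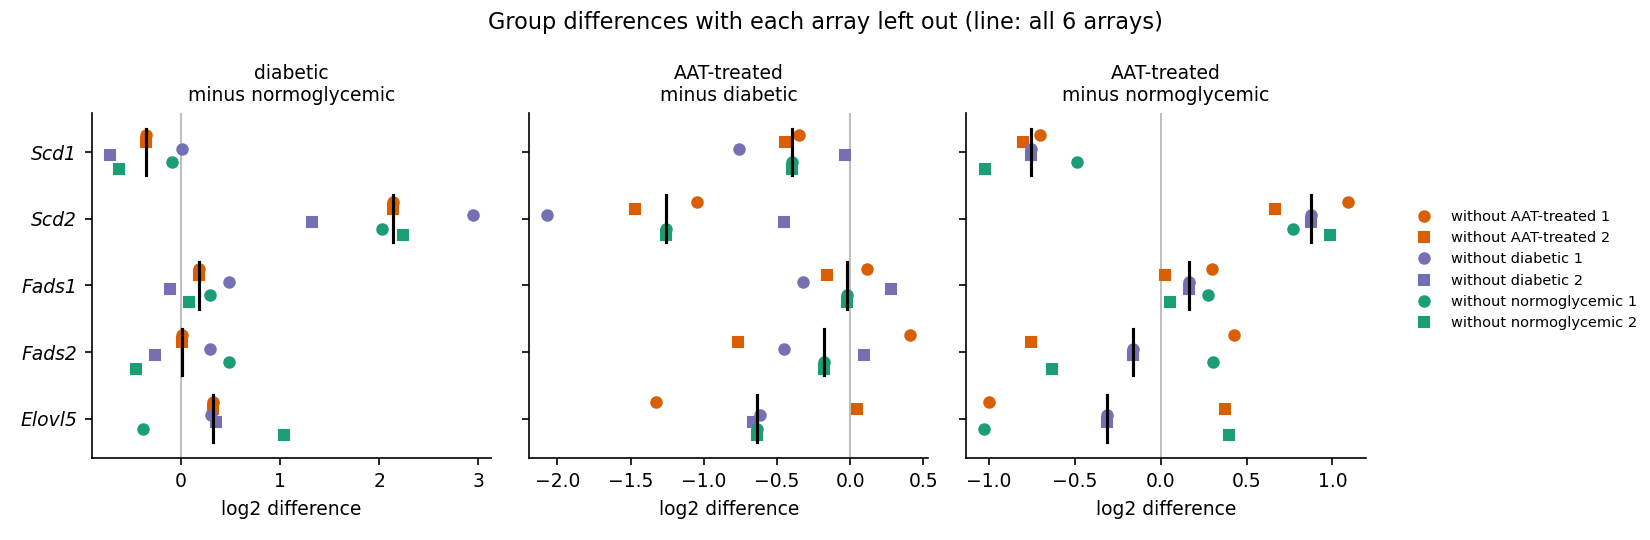
Log2 differences of the 5 genes with each of the 6 arrays left out, coloured by the group of the array, beside the value from all arrays. Scd2 keeps its sign in all 3 comparisons, while Fads2 and Elovl5 turn in each.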

How the data were processed

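The authors deposited linear intensities for 45101 probe sets. Per the submitters' processing notes they come from MAS5, of unstated version, run on arrays of Trizol-extracted, biotin-labelled total RNA. MAS5 subtracts background and scales each array on its own. The mean without the lowest and highest 2% was 500.002 on each array, and this scaling was kept. The number of arrays limits the precision. Of the probe sets 34945 had 1 gene symbol in the platform annotation, 932 had several and 9160 had none, and only the first were used. Probe sets with a mean signal above 164 (the 40th percentile) were kept. The groups were compared with limma 3.58.1 in R 4.3.3 on log2(signal + 75), with 3 group means over 6 arrays, a variance trend and Benjamini-Hochberg adjustment at 0.05. The step was tested on simulated data. Alternatives changed the pseudocount, filter, normalization, variance model, covariates, probe set choice and arrays.

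The genes, lists and tests were chosen with earlier results of these data known. From each pathway list the 3 kept genes with the highest mean signal are named, and for each of the 5 genes the 3 other genes with the highest correlation over the arrays. Cell type markers for 13 tissues or cell types were summed per array, and those whose order over the arrays or groups resembles that of a gene described are given beside it.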

Additional observations from a re-analysis of the deposited data

How the results depend on the processing

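With 2 arrays in a group the intervals are wide, and 13 of the 15 hold 0. The differences of the 5 genes were recomputed under 19 alternatives each, and none passed the adjusted threshold. Of 15 differences 5 kept their direction throughout: Scd2 in all 3 comparisons and Scd1 in both of AAT-treated fat. No alternative used the dimmest Scd2 probe set alone, which had the opposite sign in each comparison. In AAT-treated against diabetic fat 1 gene passed without the signal filter (18193 genes tested) and 1 under the hybridisation-control covariate, against 0 in the reported fit. Between diabetic and normoglycemic fat 1 passed with that covariate, and between AAT-treated and normoglycemic fat the count without single arrays ran from 0 to 3, with 3 when normoglycemic array 2 was left out. At an unadjusted p under 0.05, diabetic against normoglycemic fat had 1291 genes, and 722 with the hybridisation-control covariate, 745 and 766 without diabetic array 1 or 2, and 554 and 1941 without normoglycemic array 1 or 2. AAT-treated against diabetic fat had 622, and 1170 with the beta-actin covariate and 1267 and 260 without AAT-treated array 1 or 2. AAT-treated against normoglycemic fat had 668, and 1196 with the beta-actin covariate and 279 and 1512 without normoglycemic array 1 or 2. The causes were not tested.

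Between diabetic and normoglycemic fat, Fads2 was at −0.0010 with a pseudocount of 300, against 0.01 as reported, and at 4.10 with the beta-actin covariate. Scd1 was at 0.24 with quantile normalization and 0.37 with the beta-actin covariate, and Elovl5 at −0.55 with the hybridisation-control and −4.87 with the beta-actin covariate. The beta-actin ratio did not overlap between groups, so fits with it can hardly separate it from group. Between AAT-treated and diabetic fat, Elovl5 was at 2.20 with the beta-actin covariate. Between AAT-treated and normoglycemic fat, Fads2 was at 0.34 with the hybridisation-control and 1.69 with the beta-actin covariate. With the mean over kept probe sets Fads1 was at −0.086 and Fads2 at 0.17. Under that setting the log2 ratio of Fads2 to Fads1 was 0.30 for diabetic against normoglycemic and 0.26 for AAT-treated against normoglycemic fat, and that of Scd2 to Scd1 was 0.11 for AAT-treated against diabetic fat.

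Without single arrays, the ranges for diabetic against normoglycemic fat were −0.72 to 0.0077 for Scd1, −0.11 to 0.49 for Fads1, −0.45 to 0.48 for Fads2, −0.39 to 1.04 for Elovl5 and −0.53 to 0.19 for the Fads2 to Fads1 ratio. For AAT-treated against diabetic fat they were −0.32 to 0.28 for Fads1, −0.77 to 0.41 for Fads2, −1.33 to 0.0475 for Elovl5 and −0.61 to 0.30 for the ratio. For AAT-treated against normoglycemic fat they were −0.75 to 0.42 for Fads2, −1.03 to 0.40 for Elovl5 and −0.78 to 0.13 for the ratio. An arm left with 1 array is assumed to vary like the other groups.

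The replicate numbers were tried as a block. Deviations of same-numbered arrays correlated at 0.08, −0.12 and −0.51 in the 3 comparisons. At −0.51, in AAT-treated and normoglycemic fat, arrays of unlike number deviated alike. These values cannot settle whether the numbers mark a batch or a pair. With the replicate block 0 genes passed in each comparison, and Scd2 between diabetic and normoglycemic fat stood at 2.14 ± 0.44 with a limma adjusted p of 0.712.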
